A study of Homo sapiens with 4 samples.

Results

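Binding of BRG1 was examined at the genes of the YAP-TEAD system: the 4 TEAD transcription factors (TEAD1, TEAD2, TEAD3 and TEAD4), the coactivators YAP1 and WWTR1, the cofactors VGLL3 and VGLL4, and the targets CCN1 and CCN2. These 10 genes of 20163 protein-coding genes were chosen by name. Every CUT&RUN peak that touched a gene body or the 50 kb on either side was taken, which gave 40 of the 24212 peaks of wild-type BRG1 and 30 of the 25371 peaks of BRG1 without its HSA domain. The sets formed 12 overlapping pairs, at 8 of the 10 genes. Of all protein-coding genes, whose median window is shorter, 33.8% had such an overlap.

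CUT&RUN maps a chromatin protein by tethering a nuclease to it through an antibody and sequencing the fragments that are cut free. SW-13 is an adrenocortical carcinoma line in which BRG1 and BRM, the alternative motor subunits of SWI/SNF chromatin remodelers, are silenced. The iBRG1 samples (2 biological replicates) came from SW-13 cells that carry doxycycline-inducible wild-type BRG1, and the i∆HSA samples (2 biological replicates) from SW-13 cells that carry inducible BRG1 deleted for the helicase/SANT-associated (HSA) domain, through which the motor subunit binds actin and actin-related proteins of the complex. Both proteins came from a transposon-borne construct and bear a C-terminal V5 tag, which the antibody recognised, and all 4 samples of 300000 cells each received doxycycline for 24 h. An individual clone of each line was used, so clone and construct cannot be told apart. Each construct had 1 peak list and no value per replicate, so no difference between the constructs could be tested, and all values below describe these lists. The sequencing depth reached is unknown.

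YAP1 and WWTR1 (the protein TAZ) do not bind DNA themselves. When the Hippo kinases are inactive they enter the nucleus and join a TEAD protein, which recognises the DNA sequence GGAATG. VGLL proteins bind TEADs at a surface that YAP1 and TAZ also use, and VGLL4 is known as a competitor of YAP1. CCN1 and CCN2 encode secreted matricellular proteins and are textbook targets of the system. At many enhancers TEADs are found together with AP-1, the dimers of JUN and FOS proteins, which recognise TGAGTCA and its reverse complement TGACTCA.

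The patterns GGAATG (TEAD) and TGAGTCA (AP-1) were looked for, in either orientation, within 100 bp of the midpoint of every peak. This found 15 matches, 10 to the TEAD and 5 to the AP-1 pattern, in the windows of the 10 genes. They are called sites below for short, and binding of TEAD or AP-1 proteins to them was not measured. Of these, 9 lay in shared peaks, and all 9 fell inside the peaks of both lists. They are shown here with 25 bases on each side (12 for the second WWTR1 line, which reaches into an untranslated exon, and 20 around the joint CCN2 site), read 5′ to 3′ on the strand that holds the pattern, with the pattern in capitals. The sequence is GRCh37 (hg19).

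CCN2, TEAD and AP-1 joined, chr6:132317245-132317295, forward strand: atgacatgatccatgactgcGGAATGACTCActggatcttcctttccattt
CCN1, TEAD, chr1:86072929-86072984, reverse strand: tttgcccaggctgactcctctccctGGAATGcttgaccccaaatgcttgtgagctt
WWTR1 upstream, AP-1, chr3:149501648-149501704, reverse strand: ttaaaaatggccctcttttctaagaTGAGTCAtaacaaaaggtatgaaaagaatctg
WWTR1 internal start, TEAD, chr3:149293811-149293840, reverse strand: tccagcctttggGGAATGctgtgagtgaca
VGLL4, TEAD, chr3:11642122-11642177, forward strand: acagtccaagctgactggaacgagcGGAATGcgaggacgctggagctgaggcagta
TEAD2, TEAD, chr19:49866926-49866981, forward strand: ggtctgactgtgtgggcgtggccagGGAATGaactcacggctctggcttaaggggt
TEAD1, AP-1, chr11:12715337-12715393, forward strand: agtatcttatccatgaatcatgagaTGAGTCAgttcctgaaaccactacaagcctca
YAP1, AP-1, chr11:102048016-102048072, forward strand: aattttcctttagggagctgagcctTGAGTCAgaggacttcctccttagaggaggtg

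In the CCN2 line the patterns overlap by 2 bases, the final TG of the TEAD pattern being the first letters of the AP-1 pattern, so that 1 unbroken run in capitals holds both. It was the only one of the 70 peaks with both patterns at its centre.

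Peaks of both lists were present at all 10 genes. Over all protein-coding genes, 74.9% had an iBRG1 peak and 80.2% an i∆HSA peak in a window drawn the same way. The windows of the 10 genes had a median length of 198 kb, longer than the 127 kb over all coding genes. Together they spanned 2.08 Mb and held 19.3 iBRG1 and 14.4 i∆HSA peaks per Mb, where the windows of all coding genes held 9.98 and 10.8. The number of peaks per gene ran from 1 to 10 in the iBRG1 list (median 4) and from 1 to 8 in the i∆HSA list (median 3). In the iBRG1 list TEAD1 had the most, with 10, followed by CCN2 with 6, then WWTR1, VGLL3 and CCN1 with 5 each, VGLL4 with 3, YAP1 and TEAD4 with 2, and TEAD2 and TEAD3 with 1. In the i∆HSA list WWTR1 led with 8, followed by TEAD1 with 6, YAP1, TEAD4, VGLL4 and CCN1 with 3, and the other 4 genes with 1 each. Per 100 kb of window the short target genes CCN2 and CCN1 had the most iBRG1 peaks, with 5.81 and 4.82, and the lowest values were 0.821 at TEAD2 and 0.81 at TEAD3. The i∆HSA list had another order per 100 kb, with CCN1 (2.89) and WWTR1 (2.5) highest, CCN2 at 0.969 and VGLL3 lowest at 0.466. Neighbours in these orders that differ by a few peaks cannot be separated without replicate values. The counts of the lists differed by 5 at CCN2 (6 iBRG1 and 1 i∆HSA) and by 4 at VGLL3 (5 and 1) and TEAD1 (10 and 6). The i∆HSA list had more peaks at WWTR1 (5 iBRG1 and 8 i∆HSA), YAP1 (2 and 3) and TEAD4 (2 and 3). With 1 list per construct, none of these differences could be tested.

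**Figure D1:**
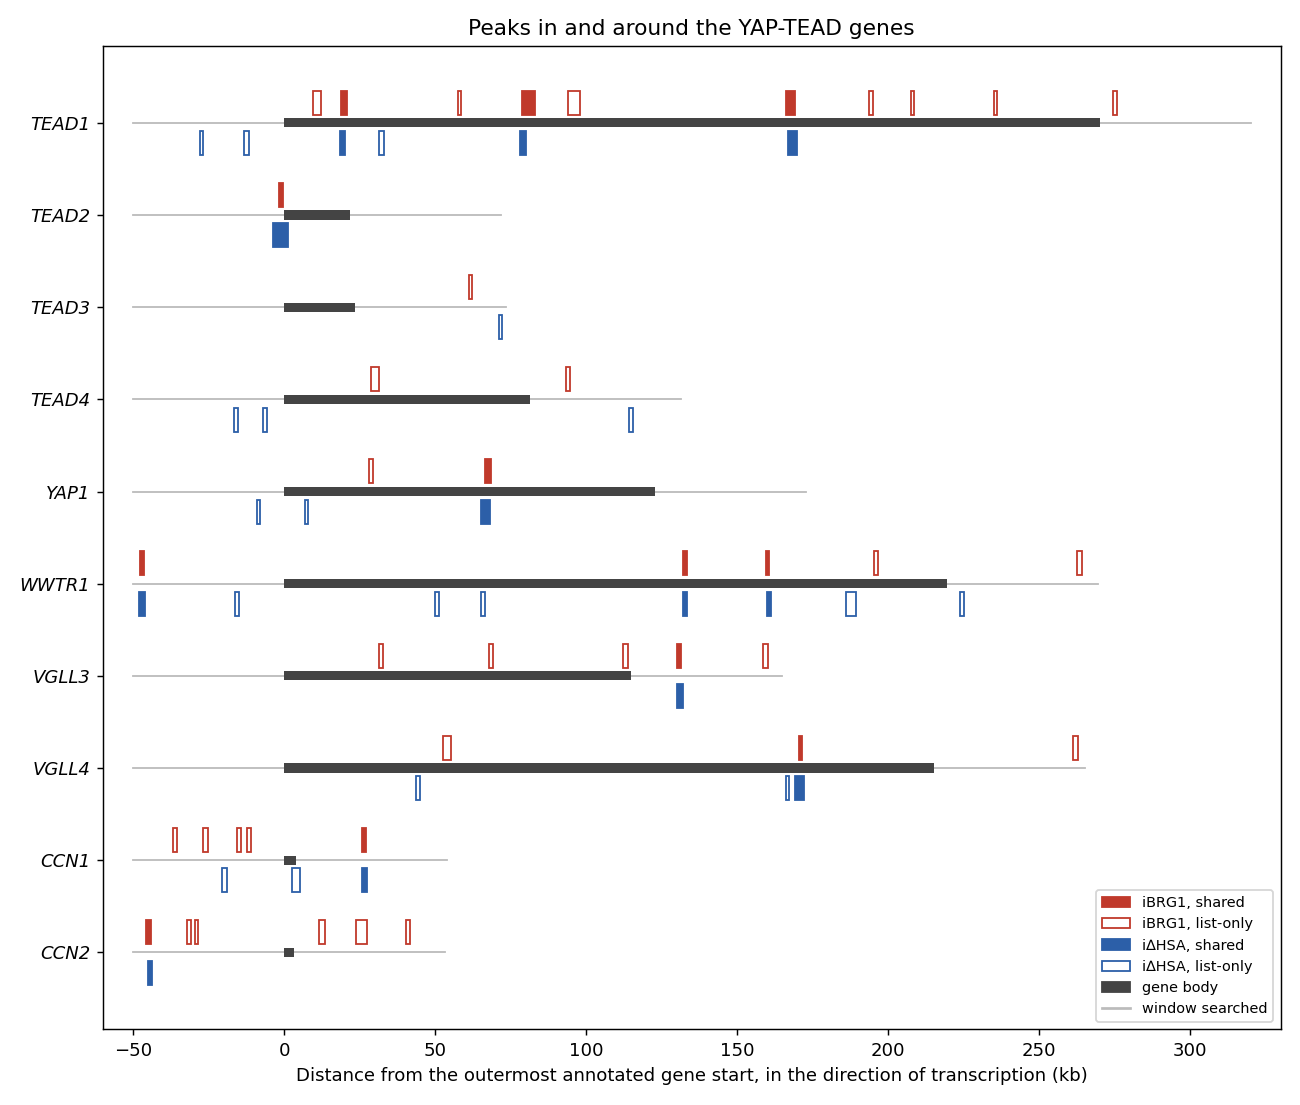
Peaks of iBRG1 (red, above each line) and i∆HSA (blue, below) at the 10 genes, against the distance in kb from the outermost annotated gene start in the direction of transcription. Dark bars are gene bodies, grey lines the windows, filled boxes the shared peaks and open boxes list-only peaks, drawn at least 1.2 kb wide. Shared peaks lay at 8 of the 10 genes (33.8% of all coding genes, whose median window is shorter), and TEAD3 and TEAD4 had none.

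Sharing, meaning an overlap of at least 1 bp with a peak of the other list, was found for 12 of the 40 iBRG1 peaks (30.0%, 95% Wilson interval 18.1 to 45.4, counting error only) and for 12 of the 30 i∆HSA peaks (40.0%, 24.6 to 57.7). The whole lists had 20.5% and 19.6%. A shared peak was present at 8 of the 10 genes and at 33.8% of all coding genes, whose windows are shorter. The TEAD pattern was at the centre of 6 iBRG1 peaks (15%, 7.06 to 29.1) and 5 i∆HSA peaks (16.7%, 7.34 to 33.6), where the whole lists had 12.2% and 10.1%. The AP-1 pattern was at the centre of 2 iBRG1 peaks (5.00%, 1.38 to 16.5) and 4 i∆HSA peaks (13.3%, 5.31 to 29.7), beside 8.89% and 6.18%. For both patterns the whole-list share lay inside the interval of the 10 genes. The same held for sharing in the iBRG1 list, while in the i∆HSA list the whole-list value lay below the interval. The intervals treat peaks as independent although they cluster in 10 windows, and both sharing values count the same 12 pairs. Members were picked with results known, so a difference from the whole lists was not tested and cannot be read from the intervals.

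**Figure D2:**
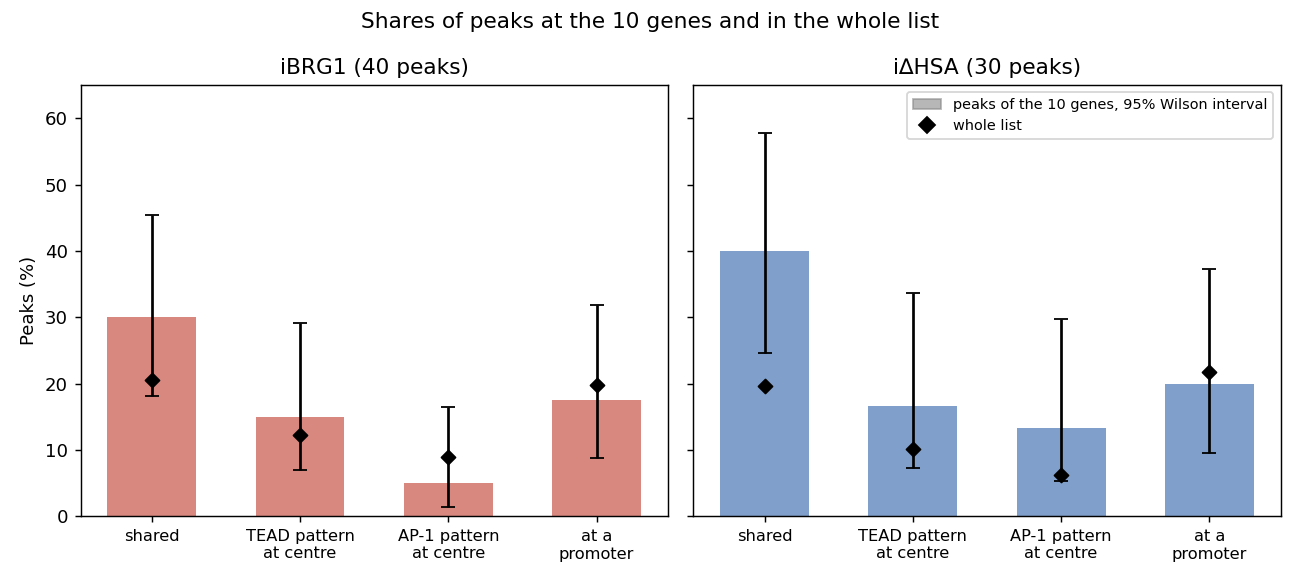
Percentage of peaks at the 10 genes that were shared, held a TEAD or an AP-1 pattern at the centre, or lay at a promoter, for iBRG1 (left, 40 peaks) and i∆HSA (right, 30 peaks). Bars give the percentage with its 95% Wilson interval and diamonds the whole list. The diamond lies outside the interval only for i∆HSA sharing (40.0% against 19.6%). The intervals treat peaks as independent, and no difference was tested.

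In the i∆HSA list, 7 of the 12 shared peaks had either pattern at the centre and 2 of the 18 list-only peaks did. Over the whole list these shares were 22.9% and 13.4%. In the iBRG1 list the counts were 3 of 12 and 4 of 28, beside 23.2% and 18.8%. These contrasts were not tested and depend on the width searched. Within 50 bp of the midpoint, 1 TEAD and 2 AP-1 centres remained among all 30 i∆HSA peaks. Among all 40 iBRG1 peaks, 4 TEAD and 0 AP-1 centres remained. No whole-list share is at hand for that width. Only 2 of the 15 sites, the CCN1 TEAD site and the AP-1 site upstream of WWTR1, lay within 100 bp of the midpoint in both lists.

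Promoters, defined as the 1 kb on either side of any annotated transcript start, held 7 of the 40 iBRG1 peaks (17.5%, 8.75 to 31.9; whole list 19.8%) and 6 of the 30 i∆HSA peaks (20.0%, 9.51 to 37.3; whole list 21.7%). Introns held 26 and 14 peaks, and distal sequence, outside all transcripts and over 300 bp past their ends, held 5 and 7. For introns and distal sequence no whole-list share is at hand, so these counts have no background beside them. Of the promoter peaks, 4 in each list belonged to a start of the gene itself, and the rest to neighbours such as TM4SF4 and COMMD2. Measured from the canonical start of each gene, the start of the transcript that the annotation treats as representative, TEAD2 was the only one of the 10 with a peak within 1 kb, in both lists. Over 19540 coding genes this share was 11.9% for iBRG1 and 14.5% for i∆HSA. The midpoints of both TEAD2 peaks were nearest to the start of its neighbour DKKL1. The nearest protein-coding start belonged to the gene itself for 30 of the 40 iBRG1 and 22 of the 30 i∆HSA peaks. No share over the windows of all coding genes is at hand. The windows of TEAD1, VGLL3 and CCN2 held no other protein-coding gene. They supplied 9, 5 and 6 of these iBRG1 peaks and 6, 1 and 1 of these i∆HSA peaks.

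Scores are given as the authors deposited them. Their scale is not stated and may differ between the lists, so each is set beside the percentage of its own list that scored at least as high. At the 10 genes the score ran from 1 to 29 in the iBRG1 list (median 3, whole list 2) and from 1 to 253 in the i∆HSA list (median 6, whole list 4). Scores under 5, the minimum that the study's methods state, were held by 25 of the 40 and 13 of the 30. Scores of 5 or more were held by 15 and 17. Over the whole lists, scores of 5 or more were held by 6575 of 24212 iBRG1 and 10440 of 25371 i∆HSA peaks. Shared peaks had a median of 6.5 and list-only peaks of 2 in the iBRG1 list, and 12.5 and 3 in the i∆HSA list. The corresponding medians of the whole lists were 5 and 2, and 8 and 3. The highest-scoring peak of a gene was shared at 5 genes in the iBRG1 list and at 8 in the i∆HSA list. The same share over all coding genes was not counted. At TEAD2, VGLL3 and CCN2 the only i∆HSA peak was the shared one, so it was the highest by construction. The same held for the only iBRG1 peak of TEAD2.

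**Figure D3:**
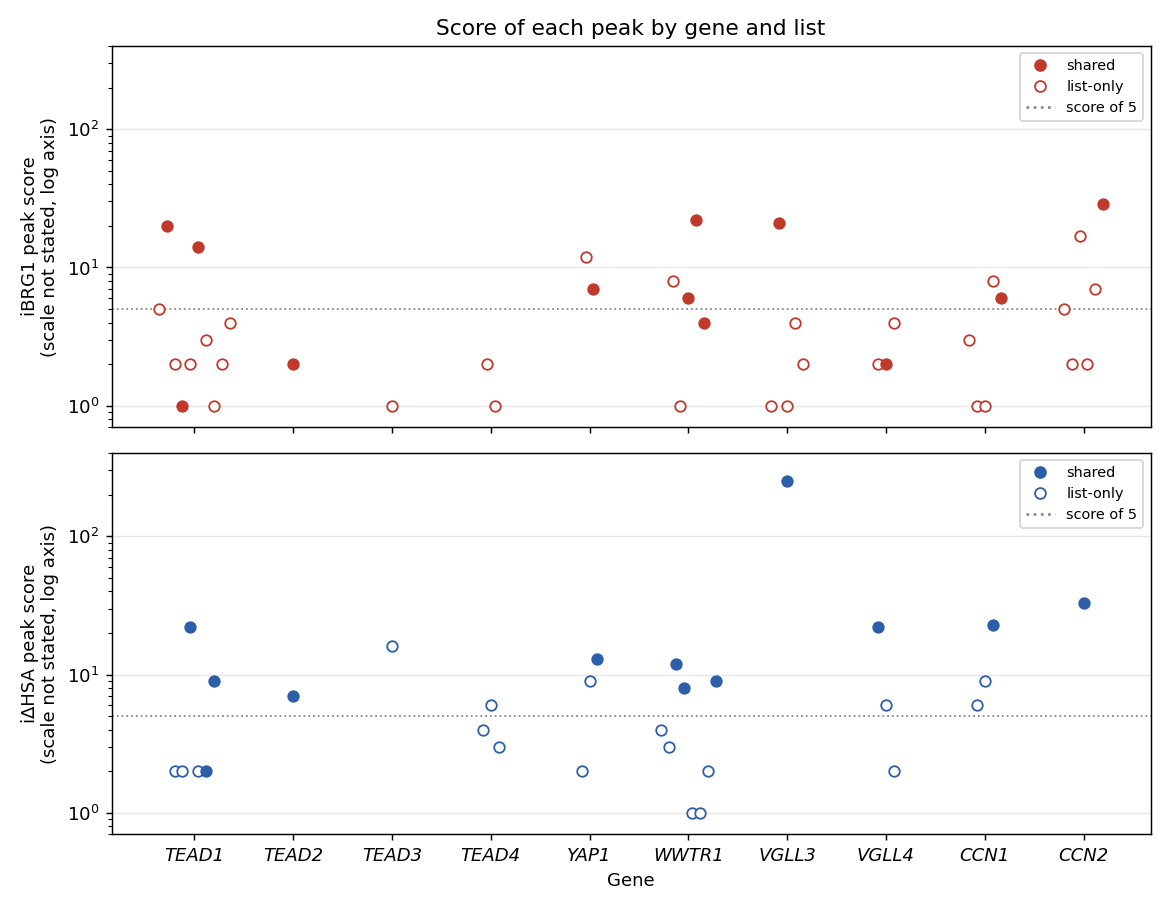
Score of every peak by gene, for iBRG1 (top, 40 peaks) and i∆HSA (bottom, 30 peaks), on log axes whose scale the authors do not state. Filled points are shared and open points list-only peaks, ordered within a gene along the chromosome, and the dotted line marks a score of 5. The VGLL3 peak with a score of 253 stands above all other points.

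Among the DNA-binding factors, TEAD1 (chr11:12695968-12966284, forward strand) had the most peaks and also the longest window, 370 kb where the other TEAD genes had 122 to 181 kb. Per 100 kb it held 2.7 iBRG1 peaks, where TEAD4 held 1.1, and 1.62 i∆HSA peaks, where TEAD4 held 1.65. All 3 of its shared pairs lay in introns. The first, in intron 2 and 19935 bp from the outermost start to the iBRG1 midpoint, paired an iBRG1 peak at chr11:12714866-12716941 with a score of 20 (3.21% of the list scored at least as high) with an i∆HSA peak at chr11:12714318-12716285 with a score of 22 (7.00%). Their common 1420 bp held 3 AP-1 and 2 TEAD patterns, 1 of them the AP-1 site shown above. The pair in intron 3, at chr11:12862304-12865241 (iBRG1, score 14, 6.43%) and chr11:12862784-12865889 (i∆HSA, score 9, 20.2%), had 3 TEAD patterns in the common stretch and none at either centre. The remaining pair had low scores, 1 for iBRG1 (chr11:12774911-12779199) and 2 for i∆HSA (chr11:12773931-12776077), no pattern in the common stretch and midpoints 2051 bp apart. Of the 7 list-only iBRG1 peaks, 2 had a TEAD pattern at the centre, namely chr11:12889834-12890739 in intron 5 (score 3) and chr11:12970475-12971686 beyond the 3′ end (score 4). The highest-scoring of the 7 was chr11:12705371-12708284 in intron 2 (score 5, 27.2%), with 4 TEAD patterns along its length and none at the centre. The others had scores of 1 or 2 and lay in introns 2, 3, 8 and 10 (chr11:12753594-12754378, chr11:12790094-12793963, chr11:12903846-12904310 and chr11:12931482-12931783). All 3 list-only i∆HSA peaks of TEAD1 had a score of 2, with chr11:12668454-12668828 and chr11:12682741-12684397 upstream of the gene and chr11:12727315-12728954 in intron 2.

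The other TEAD genes had 1 to 3 peaks per list. TEAD2 (chr19:49843852-49865714, reverse strand) shares its start region with DKKL1, which is transcribed the other way. The i∆HSA peak there (chr19:49864561-49869432, score 7) spanned 4872 bp and covered the TEAD2 start, while the iBRG1 peak inside it (chr19:49866121-49867307, score 2) ended 448 bp short of that start. The nearest protein-coding start to both midpoints was that of DKKL1, 9 bp (i∆HSA) and 273 bp (iBRG1) away. The GC content of the peaks was 58.5% (i∆HSA) and 55.9% (iBRG1), where the medians of the whole lists were 38.2% and 38.6%. TEAD3 (chr6:35441374-35464856, reverse strand) had 1 peak per list, with midpoints 71684 bp (i∆HSA) and 61767 bp (iBRG1) downstream of its start, both nearer to the start of FANCE. The i∆HSA peak (chr6:35392645-35393700, score 16) touched a 3′ UTR of PPARD and held an AP-1 site at its centre, and the iBRG1 peak (chr6:35402860-35403318) had a score of 1. TEAD4 (chr12:3068496-3149842, forward strand) had no shared peak and neither pattern at a centre. Its iBRG1 peaks were chr12:3097396-3099867 in intron 2 (score 2) and chr12:3162289-3162892 past the 3′ end (score 1). Its highest i∆HSA peak (chr12:3061677-3062466, score 6) lay 6425 bp upstream of the gene, and those at chr12:3052109-3052979 (score 4) and chr12:3182817-3184091 (score 3) were nearest to the starts of TULP3 and TSPAN9.

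YAP1, the principal Hippo effector (chr11:101981178-102104155, forward strand), had a shared pair in intron 3, with the iBRG1 midpoint 67461 bp from the start. The iBRG1 peak at chr11:102047619-102049660 had a score of 7 (18.0%) and the i∆HSA peak at chr11:102046533-102049521 a score of 13 (13.1%). The common 1903 bp held 2 AP-1 patterns, 1 of them 17 bp from the i∆HSA midpoint, and no TEAD pattern. The highest-scoring iBRG1 peak of YAP1 was list-only (chr11:102009196-102010743 in intron 2, score 12, 8.32%). The list-only i∆HSA peaks lay in intron 2 (chr11:101988398-101988823, score 9) and 8510 bp upstream (chr11:101972114-101973223, score 2).

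WWTR1, which encodes TAZ (chr3:149235022-149454501, reverse strand), had 3 shared pairs. At an internal transcript start inside intron 2 of the canonical transcript, an iBRG1 peak at chr3:149293754-149294969 (score 6, 21.7%) overlapped an i∆HSA peak at chr3:149293135-149294667 (score 12, 14.3%), and the TEAD site lay 75 bp from the i∆HSA midpoint. In the same intron, peaks at chr3:149320936-149322388 (iBRG1, score 22, 2.55%) and chr3:149321148-149322176 (i∆HSA, score 8, 23.1%) had the same midpoint, without either pattern at the centre. The third pair lay upstream of WWTR1, with midpoints at -47229 bp (iBRG1) and -47167 bp (i∆HSA) from its outermost start, at a promoter of ANKUB1, with an iBRG1 peak at chr3:149501055-149502405 (score 4) and an i∆HSA peak at chr3:149500689-149502647 (score 9). It had the AP-1 site at both centres. At other starts of WWTR1 there was an iBRG1 peak at chr3:149258188-149258941 and an i∆HSA peak at chr3:149388143-149389264, each with a score of 1. The list-only peaks elsewhere were an iBRG1 peak at the TM4SF4 promoter (chr3:149190368-149191943, score 8) and 4 i∆HSA peaks with scores from 1 to 4 (chr3:149229588-149230222, chr3:149265151-149268305, chr3:149403636-149404288 and, at the COMMD2 promoter, chr3:149469533-149470770).

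The cofactor genes each had 1 shared pair. VGLL3 (chr3:86925538-87040299, reverse strand) had the highest-scoring peak of all 70. It lay 131042 bp from the start and past the 3′ end, at chr3:86908232-86910283 in the i∆HSA list with a score of 253 (0.0749% of that list scored at least as high), and overlapped an iBRG1 peak at chr3:86908833-86910224 with a score of 21 (2.85%). These peaks were AT-rich, with 25.0% and 21.8% GC, and neither held a TEAD or AP-1 pattern anywhere along its length. A GC content of 25% or less was found for 4.76% of all i∆HSA peaks and 0.892% of all iBRG1 peaks, and for 1 peak of each list at the 10 genes. The part of base composition in the score was not tested. The other 4 peaks at VGLL3 were iBRG1-only, with scores from 1 to 4, and lay in its introns (chr3:86926424-86928020, chr3:86971160-86972217 and chr3:87007875-87008437) or downstream (chr3:86879967-86881610, with 2 TEAD patterns along its length and none at the centre).

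VGLL4 (chr3:11597543-11812824, reverse strand) had 3 peaks per list. In its shared pair the iBRG1 peak (chr3:11641449-11642234, score 2, 71.4%) lay wholly inside the i∆HSA peak (chr3:11640497-11643673, score 22, 7.00%), and the TEAD site lay 65 bp from the i∆HSA midpoint. An i∆HSA peak (chr3:11645872-11646275, score 6) lay at 1 of the gene's internal starts and an iBRG1 peak (chr3:11757484-11760299, score 4) near another cluster of starts, and neither was shared. The last iBRG1 peak (chr3:11549863-11551451) lay in an intron of ATG7 and the last i∆HSA peak (chr3:11768399-11768690) in one of VGLL4, each with a score of 2.

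At the targets, the peaks lay away from the start sites. CCN1 (chr1:86046444-86050272, forward strand) had no iBRG1 peak within 11114 bp of its start and no i∆HSA peak within 2491 bp. The shared pair was downstream, 26494 bp (iBRG1) from the start, with an iBRG1 peak at chr1:86072356-86073520 (score 6, 21.7%) and an i∆HSA peak at chr1:86072128-86073915 (score 23, 6.66%) whose midpoints were 83 bp apart. The TEAD site lay 19 bp from the iBRG1 and 64 bp from the i∆HSA midpoint. An i∆HSA-only peak at chr1:86048935-86051740 (score 9, 20.2%) began in the CCN1 gene and ran past its 3′ end, and held 6 TEAD patterns and 1 AP-1 pattern along its 2806 bp, none within 100 bp of the midpoint. The peaks upstream of CCN1 lay in introns of its neighbour DDAH1. The highest iBRG1 score of the window was there (chr1:86034298-86035330, score 8, 14.9%), and the other iBRG1-only peaks, at chr1:86009845-86010874, chr1:86019636-86021262 and chr1:86031073-86032008, had scores of 3, 1 and 1. An i∆HSA-only peak there (chr1:86025972-86027389, score 6) had a TEAD pattern at the centre.

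CCN2 (chr6:132269316-132272512, reverse strand) had no peak over its body in either list, and the nearest edge of a peak was 11644 bp (iBRG1) and 43767 bp (i∆HSA) from its start. All 7 peaks of the window overlapped the long noncoding RNA gene LINC01013. The shared pair lay upstream, 44812 bp (iBRG1) and 44456 bp (i∆HSA) from the start, and had the highest iBRG1 score among the 10 genes. The iBRG1 peak at chr6:132316483-132318166 had a score of 29 (1.22%) and the i∆HSA peak at chr6:132316279-132317658 a score of 33 (4.2%). Both contained the joined TEAD and AP-1 sequence, which was 56 bp from the iBRG1 midpoint as measured to the TEAD pattern. The other 5 peaks were iBRG1-only. Of these, chr6:132259067-132260868 had a score of 17 (4.61%), and a TEAD pattern was at the centre of chr6:132231334-132231718 (score 5) and of chr6:132301088-132301976 (score 2). The last were chr6:132303888-132304315 (score 7) and chr6:132245028-132248619 (score 2), with neither pattern at the centre.

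**Figure D4:**
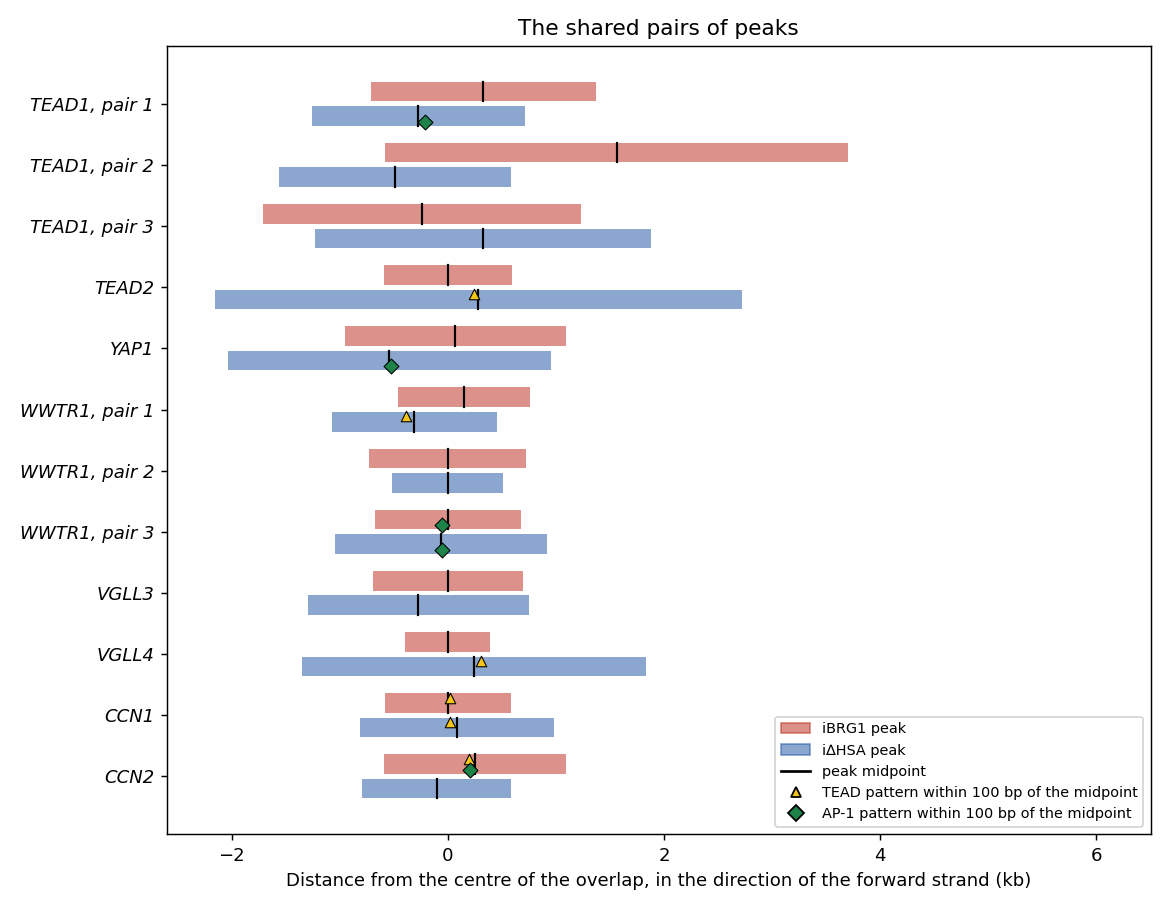
The 12 shared pairs of peaks, each centred on the stretch common to both, with the distance in kb along the forward strand. Red bars are iBRG1 and blue bars i∆HSA peaks, black ticks are midpoints, triangles TEAD and diamonds AP-1 patterns within 100 bp of a midpoint. The joined patterns at CCN2 lie beside the iBRG1 midpoint, and the midpoints of WWTR1 pair 2 coincide.

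Taken as a group, the 12 pairs had 786 to 2458 bp in common. Their midpoints were 0 to 2051 bp apart (median 319), within 100 bp in 3 pairs and over 500 bp in 4. The i∆HSA peak was the wider in 8 pairs and enclosed the iBRG1 peak in 5. The iBRG1 peak lay in an intron in 7 pairs, at a promoter in 3 and outside transcripts in 2. The common stretch held a TEAD pattern in 9 pairs, an AP-1 pattern in 6, both in 5 and neither in 2. Anywhere along their length, 54.5% of all iBRG1 peaks and 49% of all i∆HSA peaks held a TEAD pattern, and 41.2% and 31.3% an AP-1 pattern. These are shares of whole single peaks, shared or not and of other lengths, so they are not a like background for the common stretches.

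The absence of peaks at the CCN2 start was set beside its sequence. From 250 bases before to 50 bases after the canonical start, CCN2 and TEAD4 had 3 TEAD patterns each, TEAD1 had 2, YAP1 and CCN1 had 1, and the other 5 genes had 0. None of the 10 had an AP-1 pattern there. Over the 19540 coding genes, 11.3% had a TEAD and 3.55% an AP-1 pattern in this 300-base region. The 3 CCN2 matches begin between 169 and 95 bases before the start (chr6:132272587-132272696, reverse strand, TEAD patterns in capitals).

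CCN2 promoter: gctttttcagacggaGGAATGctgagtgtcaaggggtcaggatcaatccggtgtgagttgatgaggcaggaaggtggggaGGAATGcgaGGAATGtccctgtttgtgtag

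Other genes of the Hippo pathway were counted in the same way. Of 18 upstream regulators, among them the kinases LATS1, LATS2, STK3 and STK4 and the adaptors SAV1 and NF2, 18 had an iBRG1 peak (100%, all coding genes 74.9%), 17 an i∆HSA peak (94.4%, all coding genes 80.2%) and 11 a shared peak (61.1%, all coding genes 33.8%). Their median window was 217 kb, where that of all coding genes was 127 kb. They held 74 iBRG1 and 55 i∆HSA peaks (median 3.5 and 2.5 per gene, where all coding genes had 1 and 2). STK3, the kinase MST2 and a gene of 572 kb, had the most with 10 and 12, followed by TAOK1 with 8 and 3. LATS2, MAP4K4 and PTPN14 each had 10 over both lists. Of 18 further YAP/TAZ targets, 16 had an iBRG1 peak (88.9%), 17 an i∆HSA peak (94.4%) and 12 a shared peak (66.7%), beside the same shares of all coding genes. Their median window was 144 kb and the medians were 4 iBRG1 and 3 i∆HSA peaks per gene. RBMS3 had 21 in each list over a gene of 1440 kb, ASAP1 had 9 and 12, and MYOF 8 and 8. IGFBP3, named after its value was seen, had none in either list. The cofactors VGLL1 and VGLL2 had 0 iBRG1 peaks and 3 and 1 i∆HSA peaks.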

How the data were processed

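CUT&RUN with an anti-V5 antibody was analysed in 4 samples, grouped by title. Per the study's methods, reads were trimmed (Cutadapt), aligned (Bowtie2) and freed of duplicates (Picard), and the authors called peaks in MACS2, version 2.2 in the submitters' processing notes, which name hg19. The methods also state a minimum score of 5 and the removal of peaks seen in negative controls. The deposited files give, per construct, the position and a score of each peak. The scale of the deposited score is not stated, scores under 5 are present, and whether replicates were pooled is not given in the sources used here. Both lists are longer than the peak sets that the paper reports. At a score of 5 or more the iBRG1 list holds 6575 peaks, fewer than the paper reports, so the published iBRG1 set was not reproduced. Peak names carry 1 number series per list, up to 340229 (iBRG1) and 286854 (i∆HSA), so the lists are subsets of longer calls. No peak ended beyond a GRCh37 chromosome.

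GENCODE release 44 mapped to GRCh37 was used, with 1-based positions. Peaks overlapping a gene body or 50 kb on either side were taken and given 1 feature each, promoters first, then untranslated regions (5′ before 3′), other exons, introns, the 300 bp past a gene's end, and distal sequence. Python 3.11.15, pandas 2.3.3, pysam 0.24.0, scipy 1.17.1 and matplotlib 3.10.9 were used, and the overlap and pattern searches were checked on made-up intervals and sequences. Intervals are 95% Wilson intervals. The genes and lists were chosen with earlier results of these data known. All 10 genes and all their peaks are given. Of the other Hippo pathway genes, the 3 of each list with the most peaks are named, ties included.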

Additional observations from a re-analysis of the deposited data

How the results depend on the processing

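No paired analysis was possible because the files hold a single list for iBRG1 and a single one for i∆HSA, without replicate columns, and for the same reason no replicate could be left out. Sharing stayed inside its interval under every alternative but 1: with scores of at least 5 it was 53.3% of iBRG1 peaks (whole list 34.8%), while it was 47.1% of i∆HSA peaks (whole list 21.9%). It was lowest with midpoints within 500 bp, at 20.0% and 26.7%. The whole-list shares given above use the 1 bp rule, so they are not a like background for these 2 values.

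Counts follow the window by construction. Gene bodies alone held 20 iBRG1 and 16 i∆HSA peaks, with 1 and 3 TEAD centres, 0 and 2 AP-1 centres and, for iBRG1, 3 at promoters. A 10 kb flank gave 23 and 19 peaks, 2 and 3 TEAD centres, 0 and 2 AP-1 centres and, for iBRG1, 4 at promoters. A 100 kb flank gave 61 and 48 peaks, 13 and 11 at promoters and, for iBRG1, 10 TEAD and 4 AP-1 centres. A score of at least 5 left 15 and 17 peaks and, for iBRG1, 3 TEAD centres, 1 AP-1 centre and 3 at promoters. No whole-list share of centres or promoters is at hand for that cut.

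The patterns depended on the search. Within 50 bp of the midpoint, TEAD was found at 4 iBRG1 and 1 i∆HSA centres and AP-1 at 0 iBRG1 and 2 i∆HSA centres. Within 250 bp, TEAD was found at 10 and 10 centres and AP-1 at 7 and 9. The stricter TEAD pattern GGAATGT left 1 iBRG1 and 0 i∆HSA centres, and the wider AP-1 pattern TGANTCA gave 8 iBRG1 centres. Promoters of protein-coding transcripts held 4 iBRG1 peaks, and 3 kb promoters held 11 i∆HSA peaks. For these widths, patterns and promoter definitions no whole-list share is at hand. The counts therefore have no background beside them and do not show a gain or loss at the 10 genes. The study's methods give a targeted depth, and the depth reached is unknown, so a gene or start without a peak had none called at this depth.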
